A study of Mus musculus with 6 samples.

Results

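The Ifit family encodes cytosolic proteins built from tetratricopeptide repeats that interferon induces strongly in most mouse tissues. The genes examined were Ifit1, Ifit2, Ifit3, Ifit3b, Ifit1bl1 and Ifit1bl2, which are 6 of the 35856 genes that had at least 1 quantified target. They were chosen by name, with their higher level after 4-hydroxytamoxifen already known in these data, so the difference between the arms is described for them and not tested. Reads shared between the near-identical copies Ifit3 and Ifit3b cannot be assigned with certainty, and their sum is given beside the split.

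The 6 libraries form 3 labelled pairs. All cells came from mice whose Mdm2 gene is flanked by loxP sites (Mdm2fl/fl) and which lack p53 (p53-/-). Per the labels, they carried a retrovirus with CreERT2, a tamoxifen-activated Cre recombinase, and GFP, or GFP alone. Which of these vectors each library's cells carried is not stated in the labels. The libraries labelled Mdm2 deleted (fibroblasts, lymphoma, sarcoma) received 1 mM 4-hydroxytamoxifen (4-OHT), and those labelled vehicle received ethanol. Exposure lasted 48 h for the fibroblasts, which were grown from ear punches, 6 h for the T-cell lymphoma and 48 h for the sarcoma, and both tumours were in short-term culture. Each combination of label and arm holds 1 library. No group of GFP-only cells given 4-OHT is labelled, so the labelled deletion and the drug cannot be told apart.

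The libraries held 26243064 to 37517726 estimated counts. Mdm2, the targeted gene, was no lower in the deleted arm than in the vehicle arm. Its level, in CPM (counts scaled to library size by edgeR's TMM method), was 30.5, 31.1 and 31.1 in the deleted arm and 28.4, 28.0 and 28.5 in the vehicle arm, with the labels in the order fibroblasts, lymphoma, sarcoma. Trp53, the gene that encodes p53, had 715, 647 and 788 counts in the deleted arm and 765, 661 and 906 in the vehicle arm, and its level was not called different (25.7 ± 2.41 against 24.4 ± 2.29 CPM, SD, n = 3 each, edgeR adjusted p = 0.414). Counts of Trp53 were thus present in all libraries of cells labelled p53-/-. Gene sums do not show which part of Mdm2 or Trp53 was read, so they check neither label. The label T-cell lymphoma did not match its markers. The 7 T-cell genes had 0 counts in both lymphoma libraries, and Cd3d, Cd3e and Cd247 were at 0 in all 6. Muscle regulators Myod1, Myog and Myf5 were also at 0 throughout. The 8 fibroblast genes summed to 7462 to 7623 CPM in the deleted libraries and 13138 to 13603 CPM in the vehicle libraries, under every label. Most of that sum was Col1a1, Col1a2 and Col3a1, with means of 1153, 3402 and 2159 CPM in the deleted arm and 1763, 5048 and 5417 CPM in the vehicle arm. Shared log2 fold changes (edgeR) ran from -1.33 for Col3a1 to -0.23 for Pdgfrb, and Lum had at most 14 counts in any library. Fewer cells of a type and less RNA per cell cannot be told apart in bulk samples. For these reasons each group is called by its label only, and the results for the members, their neighbours and the pathway lists are also given without the pair labelled lymphoma. The fibroblast marker sums did not set that pair apart from the other labels. Over all genes, edgeR called 0.307% different among the labels, beside 25.0% higher and 24.6% lower between the arms. Agreement over the labels is therefore not read as agreement over cell types.

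IFIT proteins act on RNA and on translation. IFIT1 binds messenger RNA whose cap lacks ribose methylation, a mark of some viral RNA, and keeps it from the ribosome. IFIT2 and IFIT3 bind other IFIT proteins or RNA, and IFIT1 and IFIT2 contact the translation initiation factor eIF3. Transcription of the genes is classically switched on when an interferon-activated complex that holds STAT2 and IRF9, or an activated interferon regulatory factor such as IRF3, binds the interferon-stimulated response element upstream of them.

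All members lie on mouse chromosome 19 (GRCm38, GENCODE M21), inside 99316 bases that hold 0 other protein-coding genes. In order, Ifit2 (ENSMUSG00000045932.12) spans 34550694 to 34576419 on the plus strand and Ifit3 (ENSMUSG00000074896.3) 34583531 to 34588731 on the plus strand. Ifit1bl1 (ENSMUSG00000079339.7) follows at 34592891 to 34601956 on the minus strand, and Ifit3b (ENSMUSG00000062488.9) at 34607970 to 34613401 on the plus strand. Ifit1bl2 (ENSMUSG00000067297.5) spans 34617049 to 34640743 on the minus strand and Ifit1 (ENSMUSG00000034459.8) 34640871 to 34650009 on the plus strand. The annotated starts of Ifit1bl2 and Ifit1 face away from each other with 127 bases between their first bases.

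The upstream sequences of 5 members hold the core of the interferon-stimulated response element and are shown to place its matches. Any link between a match and the level of a gene was not tested. The core was searched as GAAA, any 2 bases and GAAA again, on both strands, in windows of 250 bases before to 50 after each RefSeq start (GRCm38.p6). No other motif was searched. Each stretch below starts 10 bases before the first match, stops before the transcribed part and is written 5′ to 3′ on the strand of its gene, with the matches in capitals. The stretches are chr19:34583363-34583528 (plus) for Ifit3, chr19:34607759-34607956 (plus) for Ifit3b, chr19:34640775-34640870 (plus) for Ifit1, chr19:34640744-34640823 (minus) for Ifit1bl2 and chr19:34601969-34602082 (minus) for Ifit1bl1.
Ifit3: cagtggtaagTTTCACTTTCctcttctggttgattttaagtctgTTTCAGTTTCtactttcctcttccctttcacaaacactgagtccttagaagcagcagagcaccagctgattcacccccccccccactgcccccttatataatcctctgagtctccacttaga
Ifit3b: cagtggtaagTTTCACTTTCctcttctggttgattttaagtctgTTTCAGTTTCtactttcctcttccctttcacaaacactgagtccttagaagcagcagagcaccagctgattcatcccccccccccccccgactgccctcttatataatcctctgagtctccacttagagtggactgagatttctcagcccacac
Ifit1: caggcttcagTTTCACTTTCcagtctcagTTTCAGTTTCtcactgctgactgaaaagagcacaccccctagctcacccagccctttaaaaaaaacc
Ifit1bl2: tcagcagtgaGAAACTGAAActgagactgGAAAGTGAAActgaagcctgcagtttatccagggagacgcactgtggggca
Ifit1bl1: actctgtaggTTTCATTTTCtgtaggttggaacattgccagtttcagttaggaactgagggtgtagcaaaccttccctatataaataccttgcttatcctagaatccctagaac

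Ifit3 and Ifit3b each had 2 matches, and their stretches were identical over the first 117 bases, both matches included. Ifit1 and Ifit1bl2 share the same 2 matches, read on opposite strands of the short gap between them, and the other Ifit1bl2 window held none. Ifit1bl1 had 1 match in each of its 2 windows. Neither window of Ifit2 held these letters. Among all 32851 RefSeq promoter windows of the same length, 3.44% held a match, and among all 27025 genes with a window, 3.99% did. A match describes letters and shows no binding.

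The Ifit genes were higher in every library labelled deleted than in any library labelled vehicle. Their summed level stood at 2200.1, 2162 and 2189 CPM in the fibroblasts, lymphoma and sarcoma libraries labelled deleted, against 125, 123 and 131 CPM in the matching vehicle libraries, after TMM scaling. The groups lay far apart and the labels within an arm lay close together. The ratio was 17.6 (95% counting interval 17.1 to 18.2) under the label fibroblasts, 17.5 (16.9 to 18.1) under lymphoma and 16.7 (16.2 to 17.2) under sarcoma. The family took 0.216%, 0.220% and 0.217% of all gene counts in the deleted libraries and 0.0123%, 0.0124% and 0.0132% in the vehicle libraries. The mean log2 ratio of CPM + 0.5 was 4.11 ± 0.04 (SD over 3 labelled pairs), and 4.09 without the lymphoma pair. For all 6 members each deleted library lay above each vehicle library. The same held for 27.7% of the 15936 genes that passed edgeR's filter on low counts, which all members passed, Ifit1bl1 and Ifit1bl2 only through the deleted libraries. Since this contrast chose the members, nothing is read from that count.

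Ifit3, which encodes a partner of other IFIT proteins, had 1066, 1032 and 1079 CPM in the deleted libraries (fibroblasts, lymphoma, sarcoma) and 43.6, 39.9 and 46.6 CPM in the vehicle libraries. Its values in the deleted libraries were all more than an order of magnitude above the vehicle values. The ratio was 24.4 (23.1 to 25.9), 25.9 (24.4 to 27.4) and 23.2 (22.1 to 24.3) under the labels fibroblasts, lymphoma and sarcoma. The mean log2 ratio was 4.60 ± 0.08 (SD, 3 labelled pairs), and 4.56 without the lymphoma pair.

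Ifit3b, the near copy of Ifit3, had 284, 288 and 287 CPM in the deleted libraries and 8.50, 10.4 and 9.82 CPM in the vehicle libraries, in the same order of labels. The deleted libraries differed by little among themselves, and the vehicle library labelled fibroblasts was the lowest. Its ratios were 33.4 (29.4 to 38.2), 27.7 (24.7 to 31.1) and 29.2 (26.3 to 32.5), the highest of the 6 members under every label. Their intervals overlap among labels, and the one under lymphoma overlaps that of Ifit3 (24.4 to 27.4). The mean log2 ratio was 4.84 ± 0.13 (SD, 3 labelled pairs), and 4.89 without the lymphoma pair.

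The split between Ifit3 and Ifit3b rests on few positions. Their coding sequences are each 1212 bases long and are 99.1% identical, with 11 mismatches and no gaps. Of the 1182 windows of 31 bases in Ifit3, 923 (78.1%) occur unchanged in Ifit3b. Ifit3b received 21.04% (20.6 to 21.4), 21.8% (21.4 to 22.2) and 21.02% (20.6 to 21.4) of the joint counts in the deleted libraries. Its share was 16.3% (14.5 to 18.3), 20.7% (18.6 to 22.8) and 17.4% (15.8 to 19.1) in the vehicle libraries. These binomial intervals (exact, Clopper-Pearson) cover counting error only and not the uncertainty of the assignment. The shares did not overlap between the arms, but the intervals of the lymphoma pair did.

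The sum of Ifit3 and Ifit3b does not depend on that split. It stood at 1350, 1319 and 1366 CPM in the deleted libraries and 52.1, 50.3 and 56.4 CPM in the vehicle libraries. Its ratios were 25.9 (24.6 to 27.3), 26.2 (24.9 to 27.6) and 24.2 (23.2 to 25.3) under fibroblasts, lymphoma and sarcoma, with a mean log2 ratio of 4.66 ± 0.06 (SD, 3 labelled pairs), and 4.63 without the lymphoma pair.

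Ifit1, the cap-sensing member, had 427, 418 and 415 CPM in the deleted libraries and 28.3, 27.3 and 28.2 CPM in the vehicle libraries. Within each arm the 3 libraries were almost level. Its ratio was 15.1 (14.0 to 16.2), 15.3 (14.2 to 16.4) and 14.7 (13.8 to 15.7) under fibroblasts, lymphoma and sarcoma, and the mean log2 ratio of 3.89 ± 0.03 had the smallest spread of the 6 members (SD, 3 labelled pairs). Without the lymphoma pair the mean was 3.87.

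Ifit2, which in mice limits several neurotropic viruses, had 420, 422 and 405 CPM in the deleted libraries. In the vehicle libraries it had 43.8, 45.3 and 46.3 CPM. The arms did not overlap, and the labels were close within each arm. Its ratios of 9.58 (9.04 to 10.2), 9.32 (8.80 to 9.87) and 8.76 (8.33 to 9.22) were the lowest of the 4 abundant members under every label. The mean log2 ratio was 3.19 ± 0.07 (SD, 3 labelled pairs), and 3.18 without the lymphoma pair.

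Ifit1bl1 and Ifit1bl2, named for their likeness to Ifit1, were rare. Ifit1bl1 had 50, 42 and 52 counts in the deleted libraries and 9, 6 and 11 counts in the vehicle libraries. That is 1.70, 1.58 and 1.88 CPM against 0.316, 0.203 and 0.292 CPM, with ratios of 5.37 (2.61 to 12.4), 7.79 (3.30 to 22.4) and 6.43 (3.32 to 13.7). Ifit1bl2 had 36, 34 and 39 counts in the deleted libraries and 3, 7 and 5 counts in the vehicle libraries. That is 1.22, 1.28 and 1.41 CPM against 0.105, 0.236 and 0.133 CPM, with ratios of 11.6 (3.66 to 58.9), 5.41 (2.36 to 14.5) and 10.6 (4.18 to 34.5). Every deleted library lay above every vehicle library for both genes, and the wide intervals do not separate the labels. A count of 0 in a library would allow up to 3 counts, or 0.0797 to 0.113 CPM, and Ifit1bl2 was at that limit in the fibroblasts library labelled vehicle. The mean log2 ratio was 1.53 ± 0.09 for Ifit1bl1 and 1.46 ± 0.17 for Ifit1bl2 (SD, 3 labelled pairs), and 1.51 and 1.55 without the lymphoma pair. Adding 0.5 to such low CPM makes these means smaller than the ratios above, and the choice sets them: with 0.1 added they were 2.31 and 2.47, and with deposited TPM and 0.5 they were 0.90 and 0.79. Of the 31-base windows of the Ifit1 coding sequence, 10.1% occur in Ifit1bl1 and 17.6% in Ifit1bl2, and whether any of these low counts are Ifit1 reads was not tested.

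**Figure D1:**
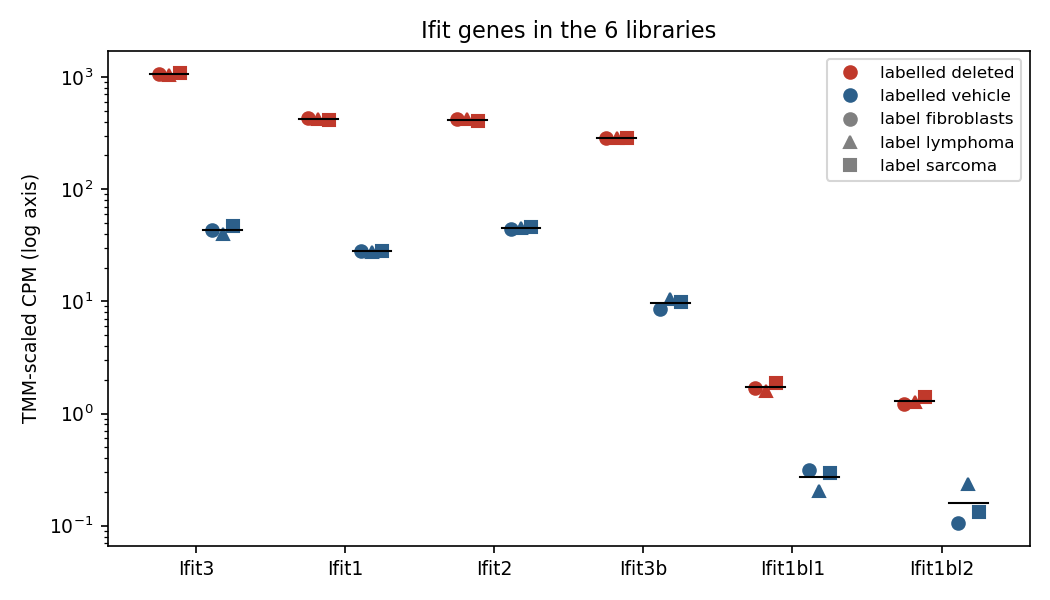
TMM-scaled CPM (log axis) of each Ifit gene in the 6 libraries, with deleted libraries in red left of vehicle libraries in blue, 1 point per library, marker shapes for the labels and a black line at the mean. Ifit3 lies at 1032 to 1079 CPM in the deleted libraries and 39.9 to 46.6 CPM in the vehicle libraries, and the arms do not overlap for any of the 6 genes.

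**Figure D2:**
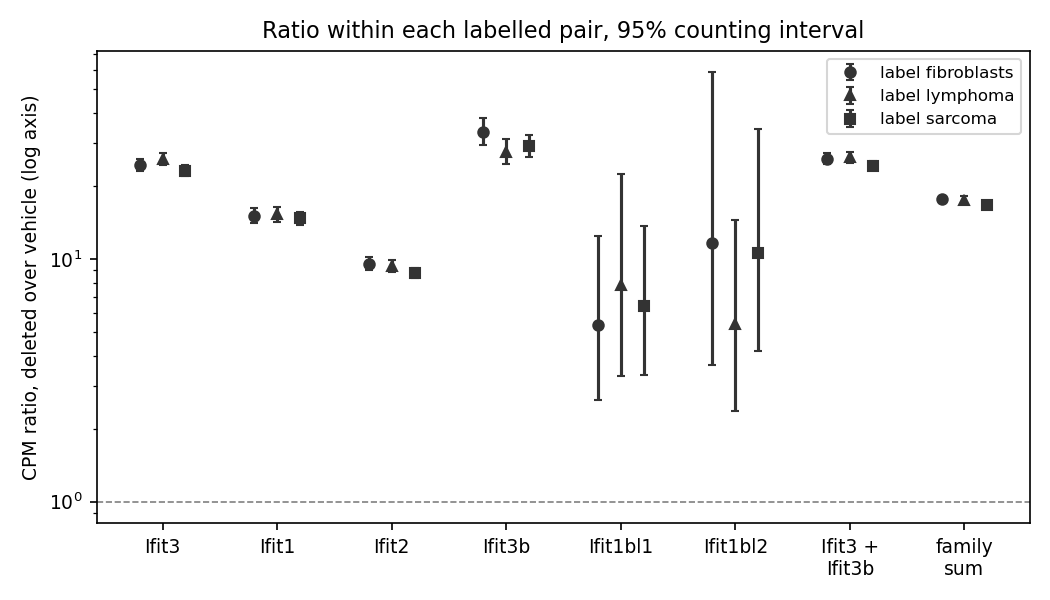
Ratio of TMM-scaled CPM, deleted over vehicle, on a log axis for each Ifit gene, for Ifit3 and Ifit3b summed and for the family sum, with 1 marker per labelled pair and bars for the 95% counting interval. The order of the 4 abundant genes by ratio is the same under every label, from Ifit3b at 27.7 to 33.4 down to Ifit2 at 8.76 to 9.58. Under lymphoma the intervals of Ifit3b (24.7 to 31.1) and Ifit3 (24.4 to 27.4) overlap, and they leave out the uncertain split of reads between these copies. The intervals of Ifit1bl1 and Ifit1bl2 are wide.

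A minimum mean of 5 CPM over a labelled pair was met by 4 members, which were each at least 2-fold higher in the deleted library, while Ifit1bl1 and Ifit1bl2 did not reach the minimum. At least 2-fold higher values were found for 2.77% of 10839 genes under the label fibroblasts, 2.79% of 10874 under lymphoma and 2.82% of 10856 under sarcoma. Ranked by log2 ratio among these genes, Ifit3b stood 5th, 8th and 5th under the labels fibroblasts, lymphoma and sarcoma. Ifit3 stood 10th, 11th and 12th, Ifit1 28th, 29th and 29th, and Ifit2 47th, 52nd and 53rd. The members were picked for this contrast, so the ranks describe them and support nothing.

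Because their ratios differed, the make-up of the family differed between the arms. Ifit3 held 48.5%, 47.7% and 49.3% of the family's counts in the deleted libraries, against 35.0%, 32.3% and 35.5% in the vehicle libraries. Ifit2 held 19.1%, 19.5% and 18.5% in the deleted libraries and 35.2%, 36.7% and 35.2% in the vehicle libraries. Ifit1 differed less, with 19.4%, 19.3% and 18.9% against 22.7%, 22.2% and 21.5%.

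Levels of different genes were compared as CPM per kilobase of coding sequence. In the deleted libraries Ifit3 came first at 874 ± 20.1 CPM per kilobase (SD, n = 3 libraries), followed by Ifit1 at 302 ± 4.50, Ifit2 at 294 ± 6.52 and Ifit3b at 236 ± 1.54. Ifit1 and Ifit2 overlapped there, with 298 to 307 and 287 to 299 CPM per kilobase. In the vehicle libraries the order was Ifit3 at 35.8 ± 2.76, Ifit2 at 31.9 ± 0.857, Ifit1 at 20.1 ± 0.382 and Ifit3b at 7.90 ± 0.804 CPM per kilobase. The lowest Ifit3 value there, 32.9, was barely above the highest Ifit2 value, 32.7. Ifit1bl1 and Ifit1bl2 came last in both arms, at 1.22 ± 0.107 and 0.930 ± 0.0686 in the deleted libraries and at 0.191 ± 0.0423 and 0.113 ± 0.0493 CPM per kilobase in the vehicle libraries, where these genes overlapped.

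The deposited TPM values give another order, and a short Ifit2 target accounts for it arithmetically. Ifit2 has 2 targets in the files. The target Ifit2-202 is 131 bases long and identical to the first 131 bases of the 1413-base coding sequence of Ifit2-201. It is shown here because it sets the summed TPM of the gene.
Ifit2-202: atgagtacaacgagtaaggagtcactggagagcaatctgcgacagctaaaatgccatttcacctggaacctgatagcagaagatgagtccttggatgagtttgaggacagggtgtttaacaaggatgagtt

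After kallisto's correction for fragment length, this target had an effective length of 18.5 to 19.5 bases. It held 4.94% to 5.27% of the Ifit2 counts but 77.3% to 78.5% of the Ifit2 TPM. Its TPM was 473, 531 and 445 in the deleted libraries and 50.2, 51.6 and 55.0 in the vehicle libraries. The full-length target Ifit2-201 had 136, 151 and 131 TPM in the deleted libraries and 14.4, 14.7 and 15.04 TPM in the vehicle libraries. Summed over targets, Ifit2 averaged 622 ± 53.9 TPM in the deleted libraries and 67.0 ± 2.76 TPM in the vehicle libraries (SD, n = 3 each), above Ifit3 with 444 ± 16.3 and 17.8 ± 1.42 TPM. By the full-length target alone, Ifit2 lay below Ifit3 in every library.

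**Figure D3:**
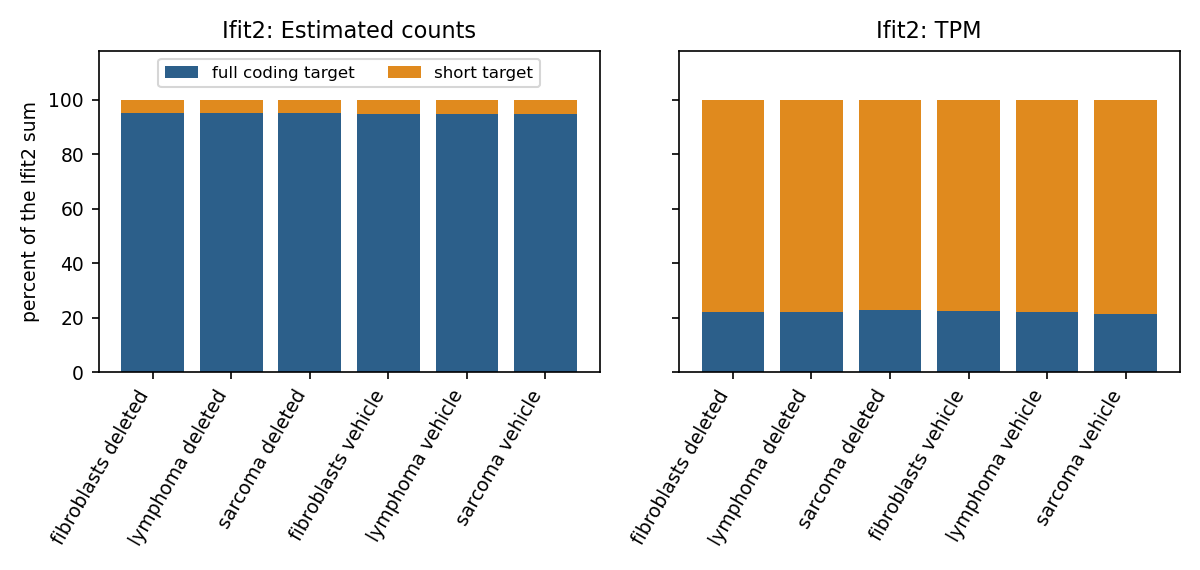
Percent of the Ifit2 estimated counts (left panel) and of the Ifit2 TPM (right panel) held by the full coding target in blue and the short target in orange, in each library, with deleted libraries left of vehicle libraries. The short target holds 4.94% to 5.27% of the counts and 77.3% to 78.5% of the TPM, nearly the same in all 6 libraries.

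Ifit1bl1 also has 2 targets of 1413 bases. Its counts were split equally between them in 5 libraries, but in the fibroblasts library labelled deleted all 50 counts went to Ifit1bl1-202. The gene sum was used throughout.

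Whether Ifit levels differ among the labels was not used to choose the members and could be tested. With the arm as a block, none of the 6 members passed edgeR's quasi-likelihood F test over the 3 labels, and none had an unadjusted p under 0.05. Ifit3 came nearest, with an adjusted p of 0.728 in edgeR and geometric means of 216, 203 and 224 CPM under the labels fibroblasts, lymphoma and sarcoma. The adjusted p of the other members was between 0.890 and 0.989 in the same edgeR test. Averaged over the arms, log2 levels of CPM + 0.5 spanned 0.03 (Ifit2) to 0.18 (Ifit1bl1) over the labels. The 0.5 added narrows this span for the 2 rare genes. Their geometric means without it were 0.732, 0.565 and 0.741 CPM for Ifit1bl1 and 0.359, 0.549 and 0.432 CPM for Ifit1bl2, in the same order of labels. DESeq2 also called 0 of the members and gave no adjusted p for Ifit1bl1 and Ifit1bl2. Over all genes the share called among labels was 0.307% (49 of 15936). The lack of a call is thus shared with nearly all genes, and nothing particular to the members or about cell types is read from it. Without the lymphoma pair, a comparison added after seeing the data, edgeR called 87 genes and none of the members (adjusted p = 0.999 for each). The 6 h exposure stated for the lymphoma label and the 48 h stated for the others cannot be told apart from the labels themselves. Whether the arm difference itself varies by label could not be tested with 1 library per group.

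The neighbours of the cluster were compared between the arms with the same fit across all genes, with the label as a block. In this comparison edgeR called 25.0% of 15936 genes higher and 24.6% lower in the deleted libraries. On the Ifit2 side, 3 of 5 protein-coding neighbours rose. Ch25h, the enzyme that makes 25-hydroxycholesterol, rose to 9.09 ± 0.391 CPM in the deleted libraries, against 0.936 ± 0.0534 CPM in the vehicle libraries (SD, n = 3 each, log2 fold change 3.27 ± 0.12 SE, edgeR adjusted p = 1.74e-09). Fas, a death receptor, rose to 22.2 ± 1.07 CPM, against 6.68 ± 0.971 CPM in the vehicle libraries (log2 fold change 1.73 ± 0.08 SE, edgeR adjusted p = 1.13e-08). Lipa, the lysosomal acid lipase, rose by 0.37 ± 0.04 on the log2 scale (edgeR adjusted p = 2.79e-05). Farther out, Stambpl1 fell by 0.17 (edgeR adjusted p = 0.00960), a call that was lost in DESeq2 (adjusted p = 0.0910) and with limma on TPM (adjusted p = 0.764). Acta2 did not pass (log2 fold change -0.07, edgeR adjusted p = 0.229), but did without the fibroblasts pair (-0.14, edgeR adjusted p = 0.0289). Without the lymphoma pair the log2 fold changes of Ch25h, Fas, Lipa and Stambpl1 were 3.25, 1.63, 0.38 and -0.20, and all 4 passed in edgeR.

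On the Ifit1 side, none of the 3 tested neighbours passed. Pank1 had a log2 fold change of -0.09, Kif20b of 0.10 and Rpp30 of 0.11, with edgeR adjusted p of 0.292, 0.0548 and 0.113. Kif20b passed with protein-coding genes only and without the block (edgeR adjusted p = 0.0114 and 0.0475), and none of the 3 passed without the lymphoma pair. Slc16a12 and Htr7 were too low to test, and Htr7 had 0 counts in all 6 libraries.

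**Figure D4:**
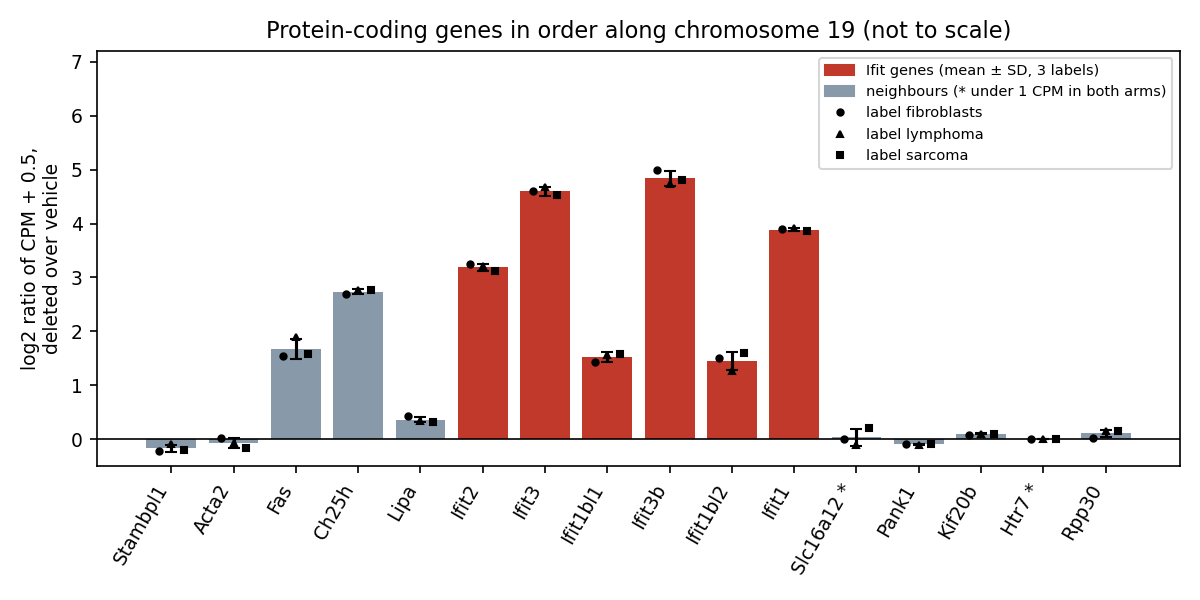
Log2 ratio of CPM + 0.5, deleted over vehicle, for the 6 Ifit genes in red and 5 protein-coding neighbours on each side in grey, in their order along chromosome 19 and not to scale, with bars for the mean, error bars for the SD over 3 labelled pairs and points for the pairs. The Ifit genes lie at 1.46 to 4.84, the lowest being the rare Ifit1bl1 and Ifit1bl2, whose bars depend on the 0.5 added, Ch25h and Fas stand above the other neighbours, and the genes beyond Ifit1 lie near 0.

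The rest of the interferon pathway was described from lists chosen with earlier results of these data known. Without the lymphoma pair the counts below changed only for receptors and kinases (6 in place of 7 rose) and for cap enzymes and eIF3 (5 in place of 6 rose). The median log2 fold change over all 15936 genes tested was 0.02, beside which the list medians are read. Counts of risen and fallen genes are read beside the shares over all genes given above, 25.0% higher and 24.6% lower.

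Of 10 ligand genes, Ifnb1 alone passed the filter, and only through its counts in the deleted libraries, so its call is not read and its counts are given as a description. Ifnb1, which encodes interferon beta, had 49, 38 and 57 counts in the deleted libraries and 2, 1 and 1 counts in the vehicle libraries. Its CPM ratio was 23.7 (95% counting interval 6.21 to 201), 42.3 (7.15 to 1714) and 77.5 (13.4 to 3116) under the labels fibroblasts, lymphoma and sarcoma. Ifna5, Ifnk, Ifng, Ifnl2 and Ifnl3 were at 0 in all libraries.

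Of 9 receptor and kinase genes, 8 passed the filter and 7 rose, with a list median of 0.23. With limma on TPM 3 rose. Jak2, a kinase of the interferon gamma receptor among others, rose by 1.11 ± 0.04 (log2, SE). The changes in Il10rb, the shared receptor chain for interferon lambda (0.35), in Ifnar2, a chain of the type I receptor (0.25), and in its kinase Jak1 (0.25) were smaller, and those of Ifnar2 and Jak1 did not pass with limma on TPM. Tyk2, the other kinase of the type I receptor, did not pass (0.13, edgeR adjusted p = 0.0666) and is named after its value was seen. It did pass in edgeR with protein-coding genes only, without the block and without the sarcoma pair (adjusted p = 0.0261, 0.0472 and 0.0385).

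Of 8 transcription factors, 7 passed the filter, 6 rose and 1 fell, with a list median of 1.61. Stat2, which with Irf9 acts at the response element, rose to 159 ± 1.54 CPM in the deleted libraries, against 45.7 ± 5.62 CPM in the vehicle libraries (SD, n = 3 each), a log2 fold change of 1.81 ± 0.06 (SE, edgeR adjusted p = 4.12e-10). Irf9 rose to 91.1 ± 0.534 CPM, against 43.0 ± 2.54 CPM in the vehicle libraries, a log2 fold change of 1.08 ± 0.04 (SE, edgeR adjusted p = 3.32e-09). Irf7, the factor that amplifies interferon production, rose by 3.31 ± 0.05, Irf5 by 2.63 ± 0.08 and Irf1, which interferon gamma induces, by 1.61 ± 0.04 (log2, SE). Irf3, which can switch on Ifit genes without interferon, fell by 0.47 ± 0.06 (edgeR adjusted p = 3.76e-05) and is named after its value was seen.

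All 12 nucleic acid sensing genes passed the filter, 8 rose and 1 fell, with a list median of 1.38. Zbp1, a sensor of left-handed nucleic acid, rose by 4.35 ± 0.09, the endosomal RNA receptor Tlr3 by 3.54 ± 0.14, and the cytosolic RNA sensors Ifih1 by 3.06 ± 0.05 and Dhx58 by 2.43 ± 0.06 (log2, SE). Ticam1, the adaptor of Tlr3, fell by 0.30 ± 0.08 (edgeR adjusted p = 0.0108). That call was lost in DESeq2, with limma on TPM and, in edgeR, without the fibroblasts pair (adjusted p = 0.1005, 0.160 and 0.0549). Mavs (-0.08), Ikbke (0.17) and Tmem173 (-0.08) did not pass, although Ikbke did in edgeR with protein-coding genes only and without the fibroblasts pair (adjusted p = 0.0360 and 0.0393). These genes with Ticam1 are named after their values were seen.

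Of 7 genes for the ISG15 system and the brakes on interferon signalling, 5 rose and 1 fell, with a list median of 1.15. Usp18, which removes ISG15 and damps the type I receptor, stood at 157 ± 1.77 CPM in the deleted libraries and 13.9 ± 1.02 CPM in the vehicle libraries (SD, n = 3 each), a log2 fold change of 3.50 ± 0.05 (SE). Trim30a rose by 3.25, the ubiquitin-like modifier Isg15 by 3.21 and the kinase inhibitor Socs1 by 1.15 on the log2 scale. Socs3 fell by 0.23 (edgeR adjusted p = 0.00712), a call that was lost with limma on TPM (adjusted p = 0.214). Ptpn6 did not pass (-0.04), and both genes are named after their values were seen.

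The cap enzymes and the subunits of eIF3, the factor that IFIT1 and IFIT2 contact, showed smaller changes. Of 16 genes tested, 6 rose, 4 fell and 6 did not pass, with a list median of 0.01, and the share that fell is close to that over all genes. With limma on TPM 2 rose and 0 fell. Cmtr1, the enzyme that adds the ribose methyl group whose absence IFIT1 recognises, rose to 205 ± 3.69 CPM in the deleted libraries, against 102 ± 3.41 CPM in the vehicle libraries (SD, n = 3 each), a log2 fold change of 1.01 ± 0.04 (SE, edgeR adjusted p = 5.53e-09). Eif3b (0.32) and Eif3c (0.30) rose, Eif3c not with limma on TPM. Eif3e fell by 0.30, and Eif3h (-0.18), Eif3i (-0.17) and Eif3l (-0.14), named after their values were seen, fell too. These 4 falls were lost with limma on TPM (adjusted p = 0.0670 to 0.407), and that of Eif3l also in edgeR without the sarcoma pair (adjusted p = 0.0714).

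**Figure D5:**
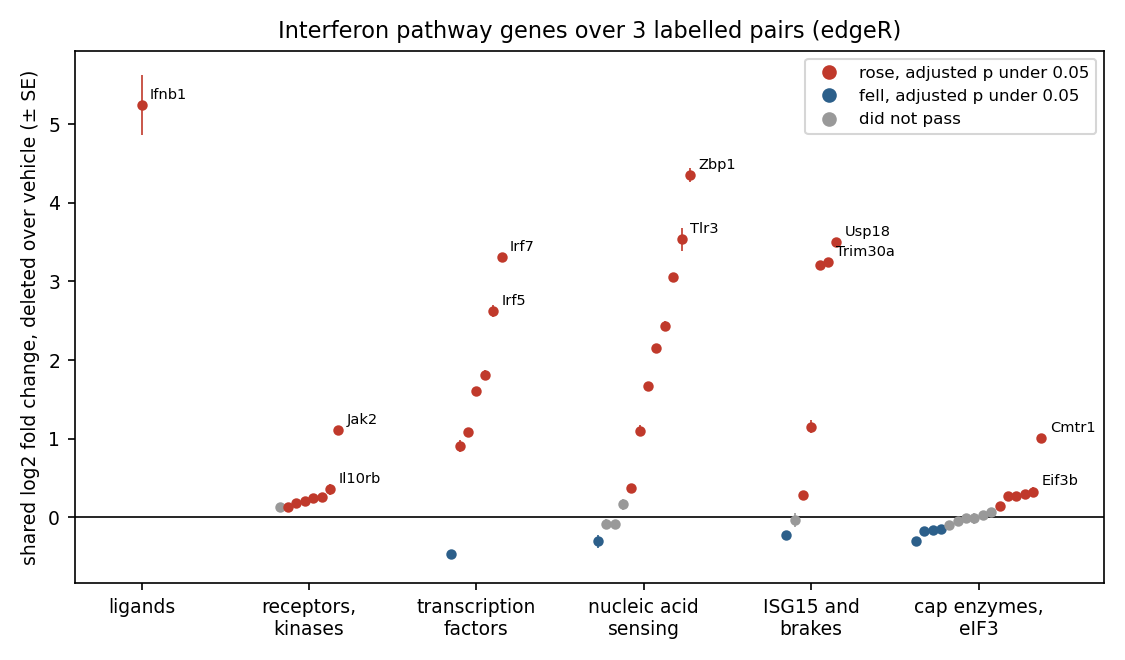
Shared log2 fold change, deleted over vehicle, over 3 labelled pairs (edgeR) for each gene of 6 lists that passed the filter. Bars show the SE derived from edgeR's F statistic, which is not a spread over the pairs. Genes are ordered by value within each list and coloured by whether they rose, fell or did not pass at an adjusted p under 0.05. Irf7 at 3.31, Zbp1 at 4.35 and Usp18 at 3.50 lead their lists, while the cap enzymes and eIF3 subunits lie between -0.30 and 1.01. Ifnb1 passed the filter only through the deleted libraries.

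The genes whose profile over the 6 libraries was most like that of the family sum were named by distance between centred log2 levels. The nearest was Cmpk2, a mitochondrial nucleotide kinase, at a distance of 0.14, with 113 ± 3.25 CPM in the deleted libraries and 6.30 ± 0.547 CPM in the vehicle libraries (SD, n = 3 each). Ifi44 followed with 305 ± 4.80 and 17.7 ± 0.852 CPM, and the guanylate-binding protein gene Gbp2 with 598 ± 6.44 and 31.9 ± 2.10 CPM. The others were Iigp1, Gbp3, Ifi209, Oasl1, Ccrl2, Oas1a and Cfb, with mean log2 ratios of 3.99 to 4.32 beside 4.11 for the family sum. Ccrl2, the lowest of these in the vehicle libraries, had 0.323 ± 0.125 CPM there and 14.8 ± 0.242 CPM in the deleted libraries (SD, n = 3 each). At that vehicle level the 0.5 added lowers its log2 ratio, and its nearness to the family depends on it. Its level in the deleted libraries alone brought Ccrl2 to a mean of 5 CPM, the minimum for this comparison. Ranked by Pearson correlation instead, only Gbp2 and Gbp3 remained among the 10. By distance without the lymphoma pair, a comparison added after seeing the data, 9 of the 10 remained. All these profiles come from the same 6 libraries, and likeness was described and not tested.

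Markers of immune cells were read beside these levels, since interferon genes are high in such cells. The 8 leukocyte and macrophage genes summed to 26.1 to 29.4 CPM in the deleted libraries and 26.4 to 28.1 CPM in the vehicle libraries. Aif1 was at 0 in all libraries, and Ptprc, the pan-leukocyte gene, had 14 counts in the sarcoma library labelled deleted and at most 2 elsewhere. Most of that sum was Cd14, the monocyte receptor for lipopolysaccharide, with 18.05, 18.9 and 20.1 CPM in the deleted libraries and 22.1, 21.7 and 22.9 CPM in the vehicle libraries (log2 fold change -0.22, edgeR adjusted p = 0.00733). Cd68, a lysosomal gene of macrophages, rose to 6.05 to 7.30 CPM, against 4.35 to 4.97 CPM in the vehicle libraries (log2 fold change 0.48, edgeR adjusted p = 0.00165). Itgam, an integrin gene of myeloid cells, had 29, 16 and 15 counts in the deleted libraries and 0, 0 and 1 in the vehicle libraries. Csf1r, the receptor gene of macrophages, had 22, 13 and 18 counts in the deleted libraries and 9, 7 and 8 in the vehicle libraries. Itgam and Csf1r passed the filter only through the deleted libraries, and no call is read for them. The 4 plasmacytoid dendritic genes summed to 472 to 494 CPM and 200 to 204 CPM in the same order of arms, and 2 of them moved in opposite directions. Bst2, which is itself induced by interferon, rose to 374 ± 5.04 CPM, against 40.8 ± 3.35 CPM in the vehicle libraries, while Tcf4, a factor of that lineage which other cells also express, fell to 105 ± 7.71 CPM, against 161 ± 2.38 CPM in the vehicle libraries (SD, n = 3 each, edgeR adjusted p = 6.91e-13 and 1.79e-06). Siglech, the defining gene of that list, had 1 count in 1 library. The 4 endothelial genes summed to 0.916 to 1.37 CPM in the deleted libraries and 0.176 to 0.292 CPM in the vehicle libraries, and the 4 epithelial genes to 23.7 to 25.7 and 9.05 to 10.1 CPM. Most of the epithelial sum was Krt18, at 21.7 ± 0.964 CPM in the deleted libraries and 8.71 ± 0.359 CPM in the vehicle libraries (SD, n = 3 each). Krt8 averaged 2.12 and 0.349 CPM in the same order of arms, and Cdh1 had at most 5 counts in any library. Epcam did not pass (log2 fold change -0.03, edgeR adjusted p = 0.938). Whether such cells contribute to the Ifit levels was not tested.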

How the data were processed

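Stranded total RNA libraries were depleted of ribosomal RNA, per the labels' protocols. Per the submitters' processing notes, the authors used kallisto 0.43.0 and GRCm38, and the strand setting was not given in the sources used here. Each deposited table holds estimated counts and TPM per target. The 76055 targets were joined by transcript ID to GENCODE M21, where 75049 matched, and the length of 94.1% of the 51165 protein-coding ones equalled the annotated coding length, so untranslated regions were not counted for these. Kallisto divides reads of similar sequences by likelihood.

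Estimated counts were summed per gene, rounded and scaled by TMM. Members and lists were chosen with earlier results of these data known. Pairs were described by ratios of CPM with 95% Clopper-Pearson intervals, which cover counting error only. EdgeR 4.0.16 quasi-likelihood tests (filterByExpr, Benjamini-Hochberg adjusted p under 0.05, two-sided) used all 6 libraries, with label or arm as block, 2 residual and 9.22 prior degrees of freedom. The labels pair libraries by cell type, and within pairs the deviations from arm means had correlations of 0.0957, 0.265 and 0.267. The labels name no separate cultures apart from the cell types. The p-values therefore reflect only how these 6 libraries vary, which may be technical.

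All members were named. In each list the 4 genes with the largest absolute log2 fold change were named, with Stat2, Irf9, Irf7, Usp18 and Ifnb1, and also the 10 genes nearest in profile and the 5 neighbours on each side. Trp53 was in the same rule. A transcription factor of the lists is not reported here. Cgas stands in for its older symbol Mb21d1. Identity was computed on coding sequences, since protein sequences were not used here. Upstream sequences are RefSeq's. Alternatives were DESeq2 1.42.0, limma 3.58.1 on log2(TPM + 1), other scalings, filters and pseudocounts, no block, and each pair left out. R 4.3.3, Python 3.11.15, pandas 2.3.3, numpy 2.4.6, scipy 1.17.1 and Biopython 1.88 were used.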

Additional observations from a re-analysis of the deposited data

How the results depend on the processing

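The direction of all 6 members held under every alternative run, and 59 of 66 alternative values of the mean log2 ratios of members and sums moved by less than the spread over labels. The low genes depended on the pseudocount and the unit. The mean log2 ratio of Ifit1bl1, 1.53 as reported, was 0.90 with deposited TPM, 2.31 with a pseudocount of 0.1 and 1.10 with a pseudocount of 1, and that of Ifit1bl2, 1.46 as reported, was 0.79, 2.47 and 0.99. The family sum gave 3.75 with TPM in place of 4.11, where the short Ifit2 target weighs most. TPM moved the median log2 ratio of all genes by 0.13 under the label lymphoma and the other scalings moved it by less than 0.1. With each pair left out in turn, Ifit1 ranged over 3.87 to 3.90, Ifit2 3.16 to 3.23, Ifit3 4.56 to 4.64, Ifit3b 4.76 to 4.89, Ifit1bl1 1.50 to 1.58 and Ifit1bl2 1.39 to 1.55. Alternatives that used the full-length Ifit2 target alone, chosen after seeing the data, left its ratio within the spread. Over all genes, 3979 were higher and 3917 lower in the deleted libraries. DESeq2 called 2543 and 2489, and limma on TPM 2352 and 1552, so that 60.2% of its calls were higher, against 50.4%. Without the replicate block edgeR called 3741 and 3770, and the member ratios use no block. Calls among the labels, 49 as reported, were 453 with no filter 5 with protein-coding genes only and 87 without the lymphoma pair, and no member was called under these. By Pearson correlation 2 of the 10 nearest genes were the same. With limma on TPM, Ptpn6 turned to 0.24 and did not pass, and 3 in place of 7 receptor and kinase genes rose, as did 2 in place of 6 cap enzymes and eIF3 subunits, while 0 in place of 4 of those subunits fell. Of the other values of named pathway genes, 279 kept their side of the threshold, 12 lost it and 5 gained it. The cause of these changes was not tested. Depth limits Ifit1bl1, Ifit1bl2 and Ifnb1, and 1 library per group leaves no test within a label.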
